A study of Bos taurus with 15 samples.

Results

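Heat shock proteins, their co-chaperones and the factors that control them were examined in RNA sequencing of bovine oocytes. Members were all genes whose symbol starts with HSPA, HSPB, HSPD, HSPE, HSPH or HSP and a digit, DNAJA, DNAJB or DNAJC, CCT2 to CCT8, or HSF and a digit, together with BAG1 to BAG6. The deposited table of 24616 genes held 84 such members. Of these, 58 passed the filter on low counts and were tested, 19 had some counts but too few for a test, and 7 had none in any library. The 40 J-domain proteins were the largest class. The others were 9 members of the HSP70 family, 3 of the HSP110 family, 2 of the HSP90 family, 8 subunits or relatives of the CCT chaperonin, 2 of the mitochondrial chaperonin, 7 small heat shock proteins, 4 heat shock factors, 6 BAG proteins and 3 partner proteins named after a member (HSF2BP, HSPBAP1 and HSPBP1). Some familiar chaperones, among them HSPA5, HSP90AB1 and CCT8, were matched by no symbol and are not analysed here.

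Chaperones bind unfolded proteins and let them fold. HSP70 proteins do so in cycles of ATP binding that J-domain proteins start and that BAG and HSP110 proteins reset. HSP90 proteins finish the folding of kinases and receptors, and the ring-shaped chaperonins enclose their clients, CCT in the cytosol for actin and tubulin and HSPD1 with its lid HSPE1 in mitochondria. Heat shock factor 1 switches on the inducible members when unfolded proteins accumulate. A fully grown oocyte transcribes little and relies on stored maternal RNA.

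The series set vitrified oocytes against fresh ones. Vitrification is cooling so fast, in a concentrated cryoprotective agent, that water solidifies without ice crystals. Oocytes were plunged into liquid helium with 5.6 M agent, liquid helium with 6.6 M, liquid nitrogen with 5.6 M or liquid nitrogen with 6.6 M, and fresh oocytes were left uncooled, with 3 libraries in each of the 5 groups. All were matured in vitro and stripped of cumulus cells with hyaluronidase, per the labels, although the series title calls them immature. The labels name neither the agent nor the animals' age or strain, and do not say whether a library held 1 oocyte or whether replicates came from separate animals, so that p-values here reflect no more than variation among libraries, part or all of which may be technical.

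Library totals ran from 1601519 to 8569618 counts. All 6 helium libraries and replicate 3 of nitrogen 6.6 M held 6346848 counts or more, and the other 8 libraries held 2822837 or fewer. Depth therefore went with the coolant, and a difference between helium libraries and the shallow nitrogen or fresh libraries cannot be told apart from one that goes with depth. Of 14 oocyte markers 11 matched the table, and all of them were detected, with sums of 6441 to 10300 CPM (a gene's share of its library's counts, TMM-scaled) in vitrified libraries and 5984 to 8294 CPM in fresh ones. Cumulus and granulosa cell markers, 15 matched of 16 listed, summed to 364 to 575 CPM in vitrified libraries and 418 to 462 CPM in fresh ones, with FSHR at 0 in every library. Replicate 2 of helium 6.6 M had the highest sum and held 116 CPM of TIMP1, against 0 to 13.3 CPM elsewhere. TNFAIP6 (27.6 CPM) and SERPINE2 (55.4 CPM) were also highest there. HAS2 was lowest there, at 74.8 CPM against 91.8 to 150 CPM elsewhere. STAR (171 CPM) and PTGS2 (71.6 CPM) lay within the range of the other libraries. Of 4 matched blood and immune markers, CD74 and HBB were at 0 in all libraries and the sum never passed 0.648 CPM. Several counts below changed when replicate 2 of the fresh group was left out, and those are given with and without it.

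Chaperone transcripts covered a wide range of levels. Levels between genes are given in FPKM, which divides counts by gene length and library total. Together the members took 0.804% ± 0.0585 of all counts in vitrified libraries (SD, n = 12) and 0.826% ± 0.147 in fresh ones (n = 3). Of the 84 members, 59 averaged at least 1 FPKM over the 15 libraries, 40 at least 10 FPKM and 9 at least 100 FPKM. The 58 tested members had a median of 18.3 FPKM, beside 11.8 FPKM for all 8441 genes tested. The 12 highest were HSPE1, HSP90B1, HSP90AA1, CCT2, DNAJA1, DNAJC8, HSPB11, HSPA8, DNAJC9, DNAJC2, DNAJC17 and DNAJB4. Besides these, members are named where they passed a test, had the smallest p in a main comparison, or are heat shock factors or their best-known targets. Other members named below, such as HSPD1 and most CCT subunits, were chosen after their values were seen.

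**Figure D1:**
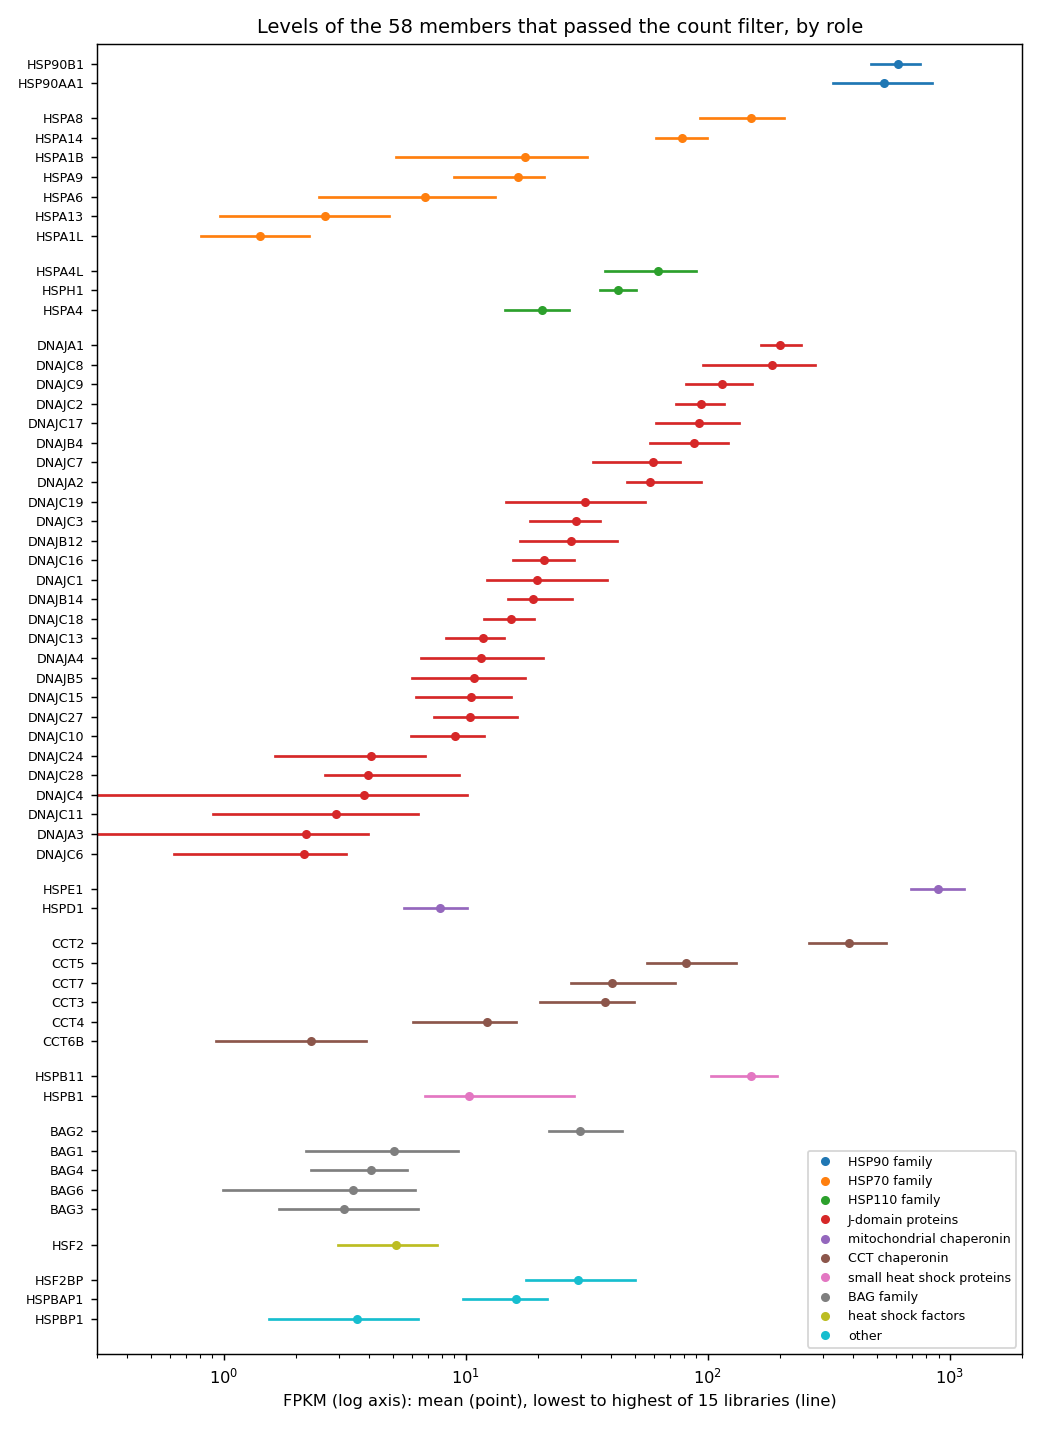
Levels of the 58 tested members in FPKM on a log axis, grouped and coloured by role, with the mean of 15 libraries as a point and a line from the lowest to the highest library; the lines of DNAJC4 and DNAJA3 reach 0 and end at the axis. HSPE1, at 894 FPKM, lies highest and HSPA1L, at 1.42 FPKM, lowest.

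The HSP90 family was represented by 2 abundant transcripts. HSP90B1, the HSP90 of the endoplasmic reticulum, averaged 612 FPKM ± 71.2 (SD, n = 15) and ranged from 471 to 752 FPKM. HSP90AA1, the stress-responsive cytosolic form, averaged 536 FPKM ± 138 and ranged from 329 to 845 FPKM. Its highest library was replicate 5 of helium 5.6 M, whereas the lowest was replicate 3 of the fresh group.

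In the HSP70 family the constitutive cytosolic member HSPA8 made up 55.0% of the summed mean FPKM, with 151 FPKM (93.1 to 208). HSPA9, the mitochondrial HSP70 known as mortalin, averaged 16.4 FPKM. The inducible HSPA1B averaged 17.6 FPKM, HSPA6 6.80 FPKM and HSPA1L 1.42 FPKM. These 3 genes belong to the same family, and HSPA1B and HSPA1L lie 645 bases apart on chromosome 23 (UMD3.1, 27331773 to 27333698 and 27334344 to 27338328). Their sequences were not compared here, so how reads split between the 3 is uncertain. Of the HSP110 family, which recharges HSP70 with ATP, HSPH1 averaged 42.6 FPKM and had the lowest coefficient of variation of the tested members in TMM-scaled CPM, 11.6% over the 15 libraries. The median coefficient of variation in CPM was 22.7% for tested members and 26.4% for all tested genes.

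J-domain proteins deliver clients to HSP70 and include specialists for many compartments. DNAJA1, a general cytosolic partner of HSP70, stood at 200 FPKM, DNAJC8, which associates with splicing factors, at 185 FPKM, and DNAJC9, which also binds histones, at 115 FPKM. DNAJC2, which works at the ribosome, averaged 93.7 FPKM, DNAJC17, linked to splicing, 92.3 FPKM and the cytosolic DNAJB4 88.3 FPKM. DNAJB1, the heat-inducible partner of HSP70, was nearly undetected, with 5 counts in all 15 libraries together. Its gene model is 714 bases long, and whether that covers the whole transcript was not tested, so its level is uncertain.

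The chaperonins were uneven among their subunits. HSPE1, the lid of the mitochondrial chaperonin, averaged 894 FPKM, and HSPD1, which forms its ring, 7.83 FPKM. The ratio of their means was 114, and it ranged from 85.6 to 192 over the 15 libraries. The genes lie 152 bases apart on chromosome 2 (HSPD1 at 86438979 to 86449372 and HSPE1 at 86449525 to 86451564, UMD3.1). Mammalian genomes carry processed copies of HSPE1, and how the authors treated reads that match several places is not given in the sources used here, so its level is uncertain.

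Of the CCT ring, CCT2 averaged 385 FPKM, CCT5 81.8, CCT7 40.4, CCT3 37.7 and CCT4 12.2 FPKM. TCP1, the ring's first subunit, lies outside the naming rule and averaged 51.8 FPKM. The ratio of CCT2 to CCT4 was 31.6 and ranged from 18.6 to 70.6 over the libraries. CCT6A was close to undetected at 0.224 FPKM (27 counts in all), and its paralogue CCT6B, known in mammals for expression in testis, averaged 2.31 FPKM. The order CCT2 above CCT5 held in every library, with ratios of 2.13 to 8.62. CCT3 and CCT7 did not differ beyond the spread between libraries, with 20.3 to 49.7 FPKM and 27.2 to 73.5 FPKM.

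**Figure D2:**
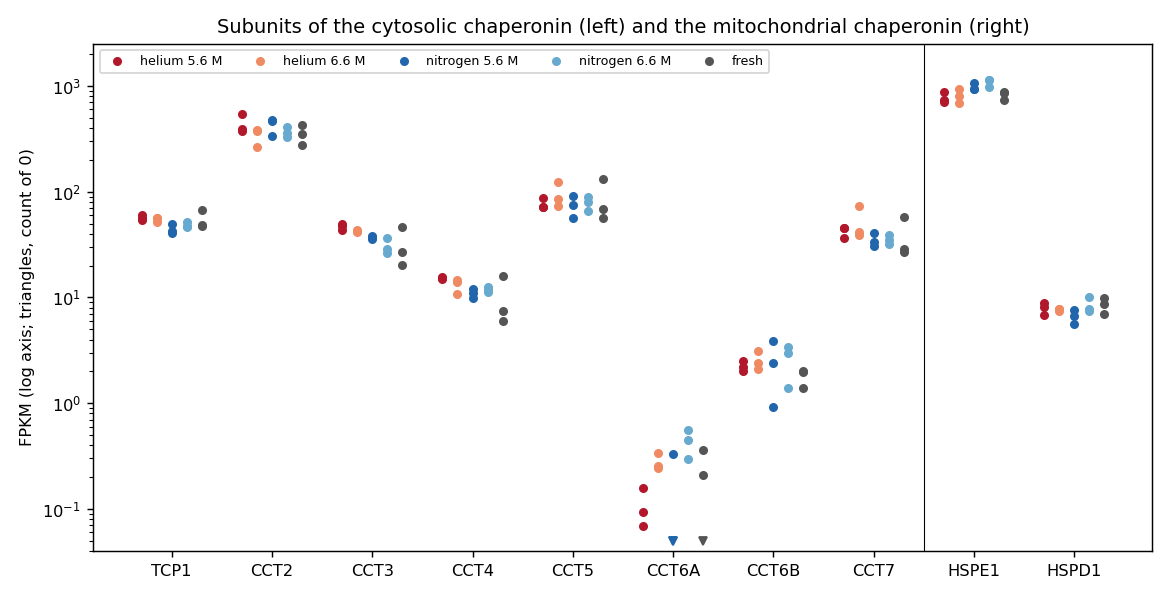
FPKM per library (log axis) of the CCT subunits with TCP1 on the left and of HSPE1 and HSPD1 on the right, with a colour for each group; triangles mark counts of 0, in 2 nitrogen 5.6 M libraries and 1 fresh library for CCT6A. Subunits of 1 ring differ more than groups do, from 0.224 FPKM for CCT6A to 385 FPKM for CCT2.

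Among small heat shock proteins, HSPB11, which is also a component of the intraflagellar transport machinery, averaged 151 FPKM and took 93.2% of the class. HSPB1, the small heat shock protein that binds actin and unfolded proteins, averaged 10.3 FPKM. HSPB7 and HSPB8 had 0 of 68098630 counts, as had DNAJB7, DNAJB8, DNAJC5B, DNAJC5G and HSF4, which allows each a share of up to 0.0441 CPM (3 counts over all libraries). Such limits cover counting error only. Heat shock factors were scarce. HSF2 averaged 5.17 FPKM and HSF1, the main stress-responsive factor, 0.923 FPKM, with 121 counts in all and none in 1 fresh library. HSF2BP, a partner of HSF2 that is known in mice for its part in meiotic recombination, averaged 29.2 FPKM. BAG2, an inhibitor of the ubiquitin ligase of HSP70, led its family at 29.7 FPKM, and BAG3, which links HSP70 to autophagy, averaged 3.16 FPKM.

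All 12 vitrified libraries were first set against the 3 fresh ones. No chaperone gene passed the test at an adjusted p under 0.05 (edgeR quasi-likelihood test, Benjamini-Hochberg over 8441 genes), where 43 of all genes did, 0.509%. DESeq2 also called 0 members. At an unadjusted p under 0.05 there were 4 members of 58, and 13.6% of all genes. The median log2 fold change was -0.06 for the members, 26 of 58 being above 0, and -0.03 for all genes. The 95% confidence interval of the fold lay within 2-fold either way for 46 of 58 members (79.3%, beside 73.2% of all genes). Fewer transcripts of a gene and more of all others cannot be told apart in such libraries, nor can fewer cells of a type and less RNA per cell.

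HSPBAP1 is named for its binding to HSPB1, and DNAJA2 is a cytosolic partner of HSP70. They were the members whose vitrified and fresh libraries did not overlap in TMM-scaled CPM, 1 higher and 1 lower. Such separation was seen in 2.03% of all genes (1.32% higher and 0.711% lower). HSPBAP1 had 25.5, 34.1 and 38.6 CPM in vitrified libraries (lowest, median and highest), against 19.98, 21.0 and 25.2 CPM (lowest, median and highest) in the 3 fresh libraries. All 12 vitrified libraries lay above all fresh ones, if narrowly. The log2 fold change was 0.56 ± 0.18 (SE), a 1.48-fold difference with an interval of 1.14 to 1.92, and did not pass (edgeR adjusted p = 0.169). DNAJA2 had 79.99, 95.8 and 109 CPM in vitrified libraries, against 117, 133 and 113 CPM in fresh replicates 1, 2 and 3, the order used for fresh libraries from here on. All 12 vitrified libraries lay below the fresh ones. Its log2 fold change of -0.36 ± 0.13 did not pass either (edgeR adjusted p = 0.205). Neither separation held in FPKM, which has no TMM scaling. HSPBAP1 had 13.36 FPKM in fresh replicate 2, above 12.85 FPKM in nitrogen 5.6 M replicate 3. DNAJA2 had 55.15 FPKM in fresh replicate 3, below 60.75 FPKM in nitrogen 5.6 M replicate 3.

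The mitochondrial HSPA9 had 27.8, 40.5 and 50.1 CPM in vitrified libraries, against 34.6, 29.5 and 24.4 CPM in fresh ones. Of the 12 vitrified libraries 10 lay above all fresh ones, and the log2 fold change was 0.44 ± 0.18 (edgeR adjusted p = 0.288). CCT3 had 55.8, 81.6 and 101 CPM in vitrified libraries, against 58.6, 78.4 and 49.6 CPM in fresh ones, and the groups overlapped. Its log2 fold change was 0.36 ± 0.16 (edgeR adjusted p = 0.335). All 6 tested CCT subunits except CCT5 had a fitted value above 0, with a median of 0.25, and none passed. On the other side, BAG3 had 4.45, 6.14 and 13.2 CPM in vitrified libraries, against 10.7, 13.0 and 7.56 CPM in fresh ones (log2 fold change -0.59 ± 0.30, edgeR adjusted p = 0.406). DNAJC16, a J-domain protein of the endoplasmic reticulum membrane, had 93.1, 113 and 141 CPM in vitrified libraries, against 119, 129 and 164 CPM in fresh ones (log2 fold change -0.28 ± 0.14, edgeR adjusted p = 0.382).

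Members that heat shock factor 1 is best known to induce showed no shared direction. HSP90AA1 had 1182, 1502 and 2621 CPM in vitrified libraries, against 2117, 1693 and 1174 CPM in fresh ones, and the ranges overlapped almost wholly. Its log2 fold change was -0.07, with an interval of -0.52 to 0.39. HSPH1 had 127, 152 and 181 CPM in vitrified libraries, against 140, 150 and 169 CPM in fresh ones. Its log2 fold change was -0.00037, with an interval of -0.28 to 0.28, that is 0.822-fold to 1.22-fold. HSPB1 had 11.9, 14.3 and 41.9 CPM in vitrified libraries, against 18.6, 19.5 and 14.3 CPM in fresh ones. The highest value came from replicate 2 of helium 6.6 M, the library with the highest summed cumulus and granulosa cell markers. These markers were uneven in it, and their part in this value was not tested. The log2 fold change of HSPB1 was -0.09, with an interval of -0.75 to 0.57.

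HSPA1B, the inducible HSP70, had 14.4, 32.5 and 54.7 CPM in vitrified libraries, against 15.3, 47.0 and 11.8 CPM in fresh ones. Fresh replicate 2 alone lay in the upper part of the vitrified range. The log2 fold change was 0.44 ± 0.36 (edgeR adjusted p = 0.658), with an interval of -0.32 to 1.197. Without fresh replicate 2 it was 1.32 ± 0.38 (edgeR adjusted p = 0.0633), which lies outside that interval. Without fresh replicate 1 it was 0.27 ± 0.40 (edgeR adjusted p = 0.880). Leaving out fresh replicate 3 gave 0.10 ± 0.37 (edgeR adjusted p = 0.943). The estimate thus depended on which fresh library was left out. HSPA6 gave -0.31 ± 0.31, HSPA1L 0.13 ± 0.39 and HSF2 -0.25 ± 0.29 on the log2 scale, none past the threshold. HSF1 had 0.405 to 4.05 CPM in vitrified libraries and 0 to 3.00 CPM in fresh ones, and was not tested.

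**Figure D3:**
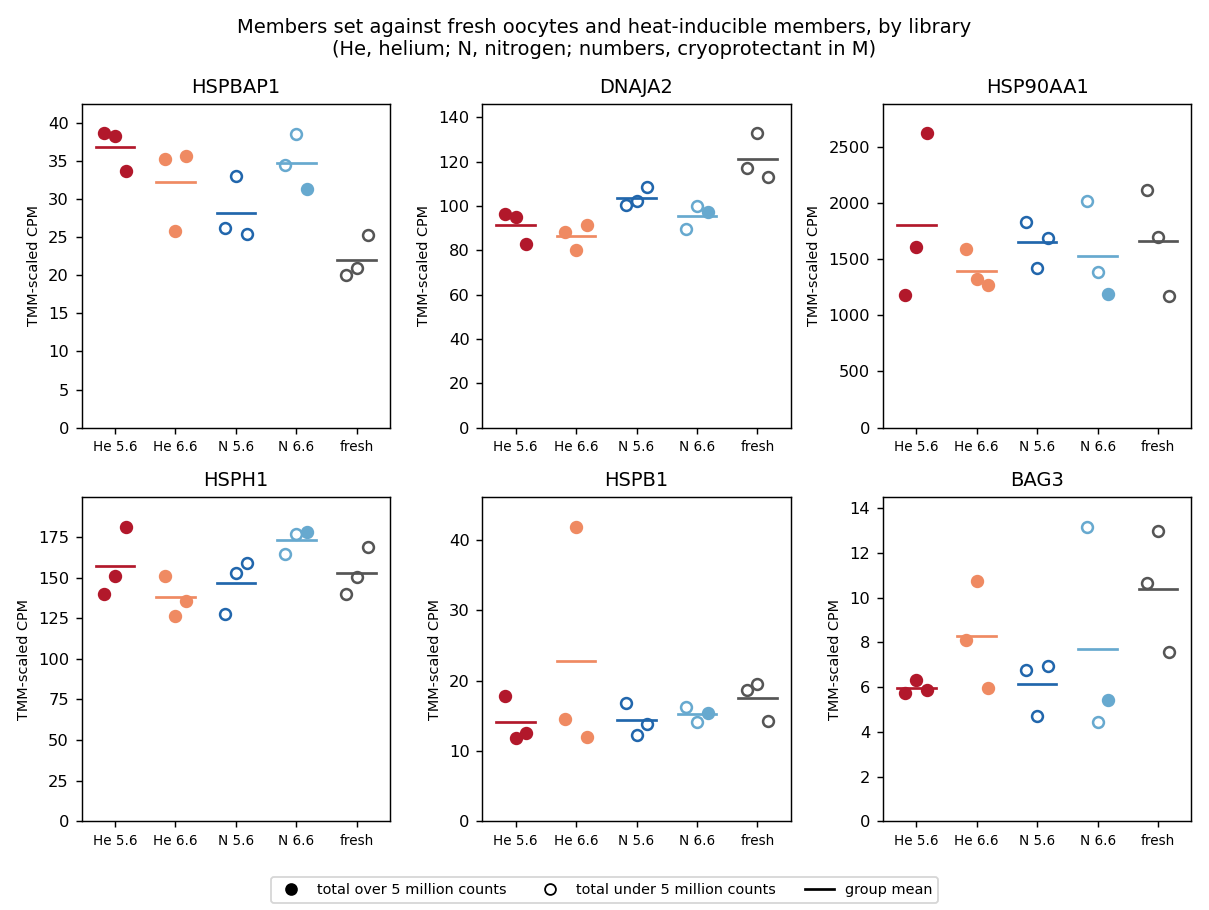
TMM-scaled CPM of HSPBAP1, DNAJA2, HSP90AA1, HSPH1, HSPB1 and BAG3 in each of the 15 libraries by group, with the group mean as a line; filled points are libraries over 5000000 counts and open points those under. HSPBAP1 lies at 25.5 CPM or more in all vitrified libraries and at 25.2 CPM or less in fresh ones, and DNAJA2 at 109 CPM or less against 113 CPM or more.

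Each vitrified group was then set against the same 3 fresh libraries, so that the 4 comparisons share them. No member passed in any of the 4 by edgeR. For helium 5.6 M, 0 of 58 members passed beside 0.474% of all genes, and 10 had an unadjusted p under 0.05 (14.1% of all genes). For helium 6.6 M it was 0 beside 0.628%, with 9 at the unadjusted threshold (15.4%). For nitrogen 5.6 M it was 0 beside 0.0118%, with 0 at the unadjusted threshold (6.74%), and for nitrogen 6.6 M 0 beside 0.0474%, with 3 (8.23%). DESeq2 called 1 member in helium 5.6 M (HSPBAP1, adjusted p = 0.0399) and 1 in helium 6.6 M (DNAJA2, adjusted p = 0.0314). It called 0 in either nitrogen group. Over the whole table DESeq2 also called more genes than edgeR in these comparisons, with counts given in the closing section. Libraries did not overlap with fresh ones for 6 members higher and 5 lower in helium 5.6 M, beside 9.36% and 8.79% of all genes (18.1% in all). In helium 6.6 M it was 3 higher and 6 lower, beside 8.09% and 8.22% (16.3% in all). In nitrogen 5.6 M it was 2 higher and 6 lower, beside 5.24% and 4.03% (9.26% in all), and in nitrogen 6.6 M 4 higher and 2 lower, beside 5.27% and 4.03% (9.3% in all).

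HSPBAP1 had a log2 fold change of 0.73 ± 0.21 in helium 5.6 M, 0.54 ± 0.21 in helium 6.6 M, 0.35 ± 0.23 in nitrogen 5.6 M and 0.64 ± 0.22 in nitrogen 6.6 M, each against fresh. DNAJA2 had -0.40 ± 0.16, -0.48 ± 0.16, -0.22 ± 0.16 and -0.34 ± 0.16 in the same order. The choice of these members by separate libraries fixes the sign in each group. CCT3 had 0.59 ± 0.20 and 0.44 ± 0.20 in the helium groups and 0.35 ± 0.20 and 0.06 ± 0.20 in the nitrogen groups, at 5.6 M and 6.6 M.

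Fresh replicate 2 decided several of these counts. Without it, 4 members passed in helium 5.6 M: CCT3 (log2 fold change 0.79, edgeR adjusted p = 0.0386), CCT4 (0.94, adjusted p = 0.0434), DNAJC24 (-1.50, adjusted p = 0.0211) and HSPA1B (1.72, adjusted p = 0.0265). In helium 6.6 M, DNAJC24 (-1.45, edgeR adjusted p = 0.0174) and HSPA1B (1.60, adjusted p = 0.0279) passed without it. With all 3 fresh libraries the value of HSPA1B was 0.83 ± 0.43 in helium 5.6 M and 0.73 ± 0.43 in helium 6.6 M. Genes called over the whole table also rose without that library, from 40 to 431 in helium 5.6 M and from 53 to 598 in helium 6.6 M. The gain was thus not particular to the members.

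The coolants were compared over both concentrations, with 6 libraries each. DNAJC24 and DNAJC19 fell in helium libraries relative to nitrogen libraries, the 2 members of 58 that passed. Of all genes tested, 56 passed (0.663%), 50 of them lower in helium (0.592%). At an unadjusted p under 0.05 there were 9 members, and 16% of all genes. The median log2 fold change was 0.03 for the members and 0.03 for all genes, and 34 of 58 members lay above 0. The interval of the fold lay within 2-fold either way for 51 members (87.9%, beside 83.2% of all genes).

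DNAJC24 encodes a J-domain protein of the diphthamide pathway, which modifies translation elongation factor EEF2, and lies on chromosome 15 (UMD3.1, 62935666 to 63020362). It had 3.25, 5.81 and 5.21 CPM in helium 5.6 M and 5.54, 4.02 and 5.17 CPM in helium 6.6 M, against 12.7, 13.2 and 12.7 CPM in nitrogen 5.6 M and 12.2, 15.4 and 8.90 CPM in nitrogen 6.6 M. All 6 helium libraries lay below all 6 nitrogen libraries. The log2 fold change was -1.35 ± 0.26 (SE; edgeR adjusted p = 0.0166), that is 0.392-fold with an interval of 0.268 to 0.571. Fresh libraries had 14.7, 3.50 and 12.2 CPM, replicates 1 and 3 within the nitrogen range and replicate 2 within the helium range. These values rest on 30 to 45 counts per helium library and 22 to 64 per nitrogen library.

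DNAJC19 encodes a J-domain protein of the mitochondrial inner membrane, related to the motor that draws proteins into the matrix, and lies on chromosome 1 (86666813 to 86672081). It had 13.9, 9.42 and 10.6 CPM in helium 5.6 M and 7.82, 11.8 and 10.5 CPM in helium 6.6 M, against 19.0, 24.0 and 30.7 CPM in nitrogen 5.6 M and 25.8, 26.3 and 19.9 CPM in nitrogen 6.6 M. Again the coolants did not overlap. The log2 fold change was -1.17 ± 0.23 (edgeR adjusted p = 0.0200), 0.444-fold with an interval of 0.316 to 0.623. Fresh libraries had 25.3, 6.49 and 14.3 CPM, which spans both coolants.

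**Figure D4:**
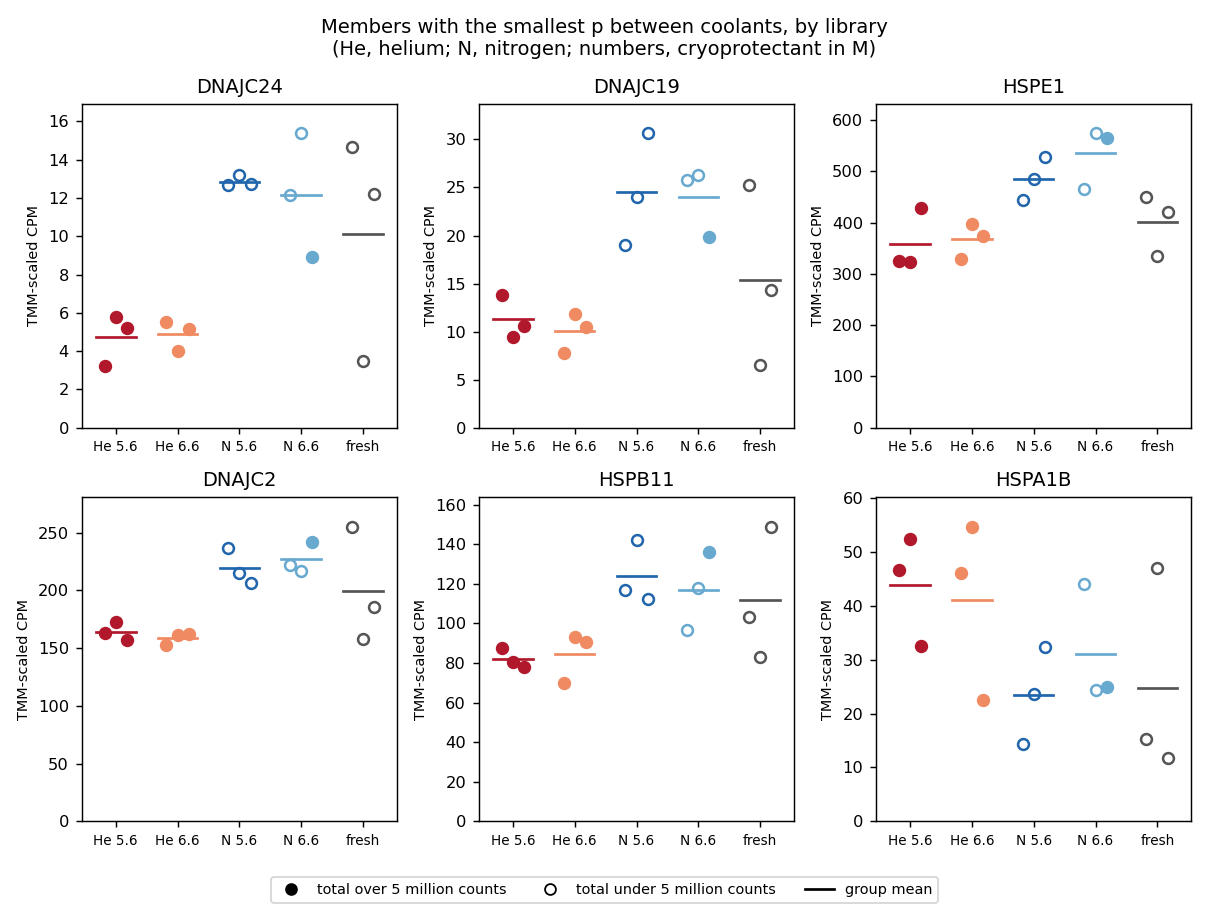
TMM-scaled CPM in each of the 15 libraries by group of DNAJC24, DNAJC19, HSPE1, DNAJC2, HSPB11 and HSPA1B, with the group mean as a line; filled points are libraries over 5000000 counts and open points those under. DNAJC24 lies at 5.81 CPM or less in helium and 8.90 CPM or more in nitrogen libraries, and the filled nitrogen point lies above every helium point for all but HSPA1B.

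In TMM-scaled CPM, 5 members had helium libraries wholly below nitrogen ones, beside 2.64% of all genes. No member lay wholly above, beside 0.723% (3.36% in all). Of the 5, 3 did not pass the test. HSPE1 had 324, 324 and 429 CPM in helium 5.6 M and 329, 397 and 375 CPM in helium 6.6 M, against 444, 485 and 528 CPM in nitrogen 5.6 M and 466, 575 and 565 CPM in nitrogen 6.6 M. Its log2 fold change was -0.49 ± 0.13 (edgeR adjusted p = 0.0734). DNAJC2 had 153 to 173 CPM in helium libraries, with a median of 162, against 206 to 242 CPM in nitrogen ones (log2 fold change -0.46 ± 0.12, edgeR adjusted p = 0.0793). HSPB11 had 69.9 to 93.0 CPM in helium libraries, against 96.7 to 142 CPM in nitrogen ones (log2 fold change -0.53 ± 0.15, edgeR adjusted p = 0.0963). In FPKM HSPB11 overlapped, with 152 FPKM in helium 6.6 M replicate 2 against 141 FPKM in nitrogen 6.6 M replicate 1. DNAJC24, DNAJC19, HSPE1 and DNAJC2 stayed separate in FPKM. DESeq2 called HSPE1, DNAJC2 and HSPB11 as well, with adjusted p of 0.00859, 0.0109 and 0.0272 in that order, and 5 members in all. Over the whole table DESeq2 also called more genes than edgeR between the coolants, with counts given in the closing section. HSPD1, the partner of HSPE1, gave -0.03 on the log2 scale.

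In the other direction no member passed. HSPA1B had 46.8, 52.5 and 32.6 CPM in helium 5.6 M and 46.2, 54.7 and 22.5 CPM in helium 6.6 M, against 14.4, 23.6 and 32.4 CPM in nitrogen 5.6 M and 44.1, 24.3 and 24.9 CPM in nitrogen 6.6 M. Of the 6 helium libraries 4 lay above all nitrogen ones, and the log2 fold change was 0.68 ± 0.30 (edgeR adjusted p = 0.268). HSF2BP had 43.0, 59.2 and 82.1 CPM in helium libraries (lowest, median and highest), against 32.1, 46.5 and 56.1 CPM in nitrogen ones (log2 fold change 0.43 ± 0.19, edgeR adjusted p = 0.269). CCT3 had 77.0, 87.7 and 101 CPM in helium libraries, against 55.8, 77.1 and 83.4 CPM in nitrogen ones (log2 fold change 0.31 ± 0.14, edgeR adjusted p = 0.278). HSP90AA1 gave 0.00 on the log2 scale, with an interval of -0.41 to 0.41, and HSPH1 -0.11, with an interval of -0.36 to 0.14.

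Library depth and gene length moved with the coolant difference. Replicate 3 of nitrogen 6.6 M was the only nitrogen library as deep as the helium ones. It had 8.90 CPM of DNAJC24 and 19.9 CPM of DNAJC19, above every helium library, and 565 CPM of HSPE1, 242 CPM of DNAJC2 and 136 CPM of HSPB11, likewise above every helium library. When the fit also had a term for depth, so that this library alone set coolant apart from depth, DNAJC24 gave -0.83 ± 0.47 (edgeR adjusted p = 0.411) and DNAJC19 -0.85 ± 0.44 (adjusted p = 0.370), and no member passed. Without that library DNAJC24 gave -1.47 ± 0.27 and DNAJC19 -1.24 ± 0.25, and both passed. DNAJC19 is 536 bases long in the gene models, HSPE1 478 and HSPB11 682 bases, whereas DNAJC24 has 2136 and DNAJC2 2059 bases. The other tested member of up to 750 bases, DNAJC15 with 629 bases, had 5.84 to 7.65 CPM in helium libraries, against 4.24 to 9.26 CPM in nitrogen ones, and a log2 fold change of 0.04 ± 0.21. Of all tested genes, the 265 of up to 500 bases had a median log2 fold change of -0.33 between helium and nitrogen, with 21 passing lower. The 417 genes of 500 to 750 bases had -0.11, with 6 passing lower, and the 4341 genes over 2000 bases had 0.02, with 11 passing lower. These length classes were chosen after the data were seen, and the part of length in the members' values was not tested.

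**Figure D5:**
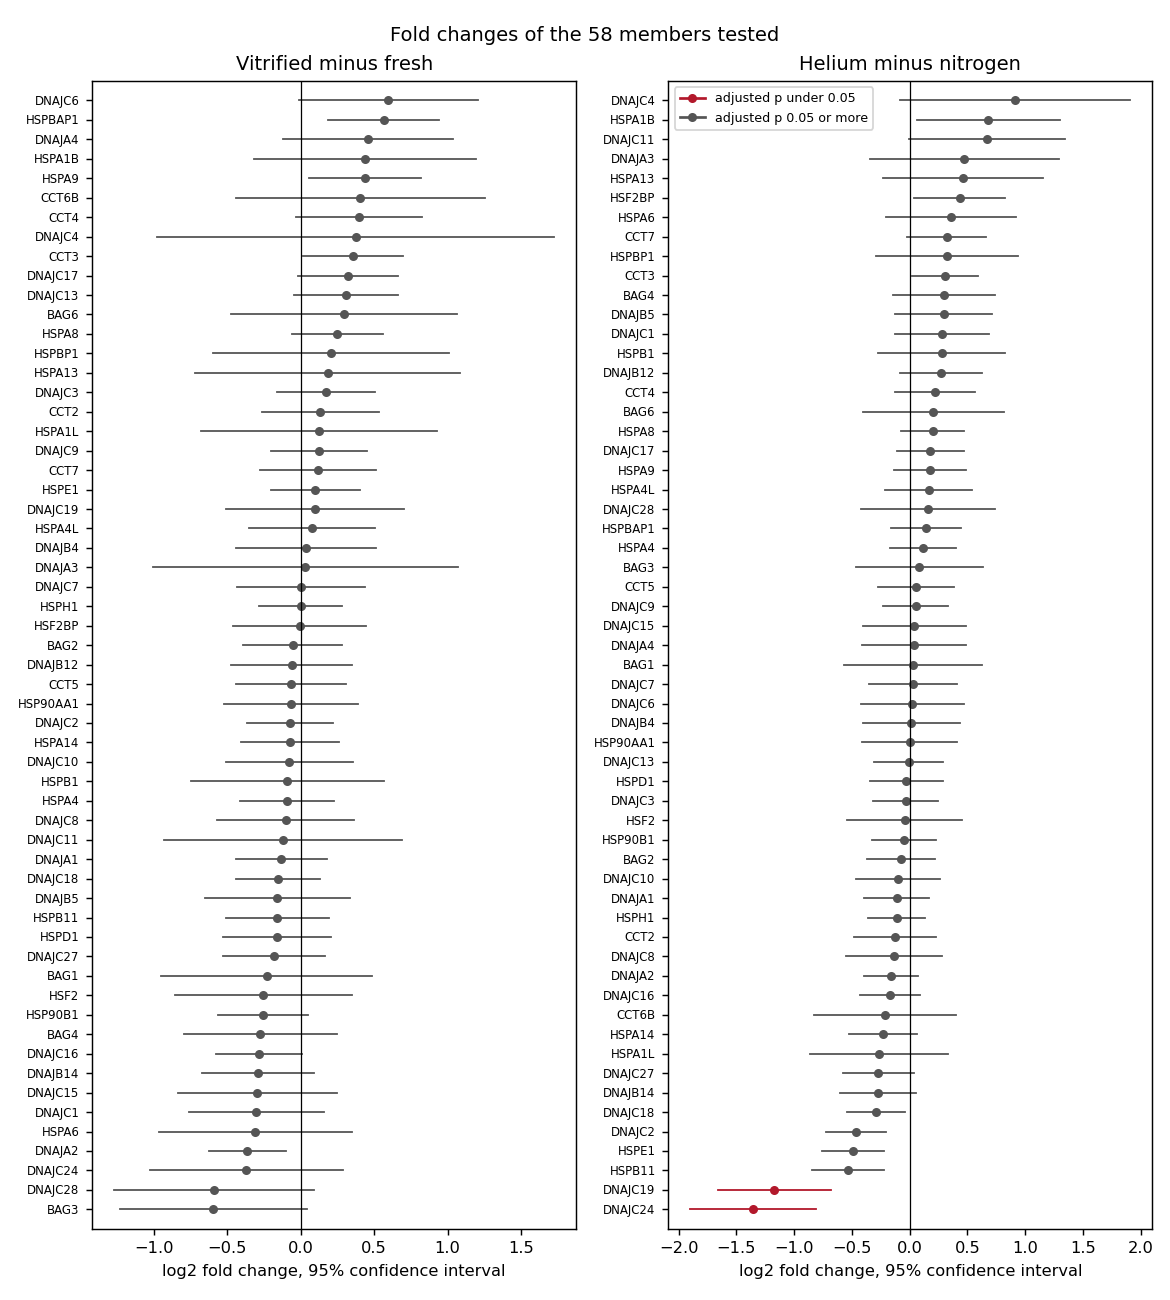
Log2 fold changes of the 58 tested members with 95% confidence intervals, for vitrified minus fresh on the left and helium minus nitrogen on the right, each sorted by value; red marks an adjusted p under 0.05. Only DNAJC24 at -1.35 and DNAJC19 at -1.17 are red, in the right panel.

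The cryoprotectant concentrations were compared over both coolants. No member passed at 6.6 M relative to 5.6 M (edgeR, 0 of 58, beside 0 genes or 0% of the whole table), and DESeq2 called 0 too. At an unadjusted p under 0.05 there was 1 member (2.24% of all genes). The interval lay within 2-fold for 56 of 58 members (96.6%, beside 90.9% of all genes). In no member were the libraries of both concentrations separate, beside 0.0711% of all genes (0.0474% higher and 0.0237% lower). DNAJC4, a J-domain gene of few counts, had 1.22, 3.37 and 6.87 CPM at 6.6 M, against 0, 2.91 and 3.14 CPM at 5.6 M (log2 fold change 1.03 ± 0.48, edgeR adjusted p = 1.00). DNAJB5 had 12.6, 15.7 and 21.4 CPM at 6.6 M, against 8.46, 11.8 and 17.2 CPM at 5.6 M (log2 fold change 0.40 ± 0.20). DNAJC1, of the endoplasmic reticulum membrane, had 23.6, 40.2 and 52.0 CPM at 6.6 M, against 25.5, 29.5 and 37.2 CPM at 5.6 M (0.37 ± 0.19).

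Among lower fitted values, CCT2 had 453, 698 and 840 CPM at 6.6 M, against 674, 810 and 1082 CPM at 5.6 M (log2 fold change -0.32 ± 0.17). CCT3 gave -0.22 ± 0.14 and DNAJC7, which bridges HSP70 and HSP90, -0.28 ± 0.18. In each of these the ranges of both concentrations overlapped. DNAJC24 gave -0.03 ± 0.26 and DNAJC19 -0.11 ± 0.23. The coolant by concentration interaction, the helium minus nitrogen difference at 6.6 M less that at 5.6 M, passed for no member (0 of 58, beside 0% of all genes; DESeq2 0 as well), and 2 members had an unadjusted p under 0.05 (2.1% of all genes). For DNAJC24 the interaction was 0.18 ± 0.52 on the log2 scale, with an interval of -0.91 to 1.26. For DNAJC19 it was -0.13 ± 0.46, with an interval of -1.10 to 0.84. A 2-fold difference was thus not excluded, upward for DNAJC24 and downward for DNAJC19.

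A list of 49 further chaperone genes outside the naming rule, among them HSP90 co-chaperones, prefoldins and tubulin-folding cofactors, was read alongside. It matched 44 table entries, with PFDN4 listed under 2 gene IDs, and 36 were tested. None passed in any of the 8 comparisons (edgeR). The list's median log2 fold change was -0.02 in vitrified against fresh libraries and 0.01 in helium against nitrogen libraries, beside -0.03 and 0.03 for all genes. At an unadjusted p under 0.05 there were 3 of 36 in vitrified against fresh (8.33%, beside 13.6% of all genes) and 11 of 36 in helium against nitrogen (30.6%, beside 16%). AHSA1, which activates the ATPase of HSP90, was the highest at 778 FPKM, and STIP1, which hands clients from HSP70 to HSP90, stood at 19.0 FPKM. PFDN4, a subunit of prefoldin, which passes actin and tubulin to CCT, had 256 to 409 CPM in helium libraries, against 381 to 683 CPM in nitrogen ones (log2 fold change -0.80 ± 0.21, edgeR adjusted p = 0.0757). TBCD, which folds beta-tubulin, gave 0.83 ± 0.22 (edgeR adjusted p = 0.0743) between the same groups.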

How the data were processed

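RNA sequencing of 15 bovine oocyte libraries was deposited as 1 table. The deposited counts are whole reads per gene with no scaling, as the file headers name them. The deposited FPKM, named so in the same headers, equalled count over gene length and library total within 0.067% in 180473 values compared. The submitters' processing notes list UMD3.1 as the genome build, and StringTie 1.3.0 and HISAT2 2.0.4 as tools. Strand, read filters and the handling of multiple matches were not given in these sources.

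Counts were tested with edgeR 4.0.16 (R 4.3.3) after filterByExpr by group and TMM scaling, in 1 robust quasi-likelihood fit of 5 groups of 3 libraries, with Benjamini-Hochberg adjustment over 8441 genes and a threshold of 0.05. The fit and its calls were tried on simulated counts for vitrified against fresh only, with planted changes of a single size in well-counted genes. Smaller changes and changes in scarce genes were not simulated. The 8 comparisons were contrasts of this fit. CPM are TMM-scaled. Standard errors and 95% intervals came from the same fit. DESeq2 1.42.0, its size factors, no filter, each library left out, a replicate block and a depth term (totals over or under 5000000) were alternatives. Members named are those past the threshold, the 12 highest by FPKM, the 3 smallest p each way in vitrified against fresh, helium against nitrogen and 6.6 M against 5.6 M, and heat shock factors with their best-known targets. Members and lists were chosen with earlier results of these data known. Deviations of same-number libraries of helium 6.6 M and fresh from their group means had correlations of 0.147, 0.306 and 0.227. In other pairs of groups such values ran from -0.355 to 0.431. Libraries of different numbers were not compared, so whether the numbers pair any groups was not tested. Sequences are not printed, since no sequence source was used.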

Additional observations from a re-analysis of the deposited data

Results flagged for a closer look

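Among the named members that were tested, each coolant's 6 libraries were searched for 1 library apart from the other 5, using the gap to the next library over the whole range. Of 62 such sets, 8 passed Dixon's 95% limit. That limit passes about 1 in 20 for independent, normally distributed values. The sets here share libraries, so the 8 cannot be set against that rate. In helium, replicate 5 at 5.6 M was highest for HSPA8 at 484 CPM (the others 340 to 359), for HSP90AA1 at 2621 CPM (the others 1182 to 1608) and for DNAJC9 at 143 CPM (the others 93.6 to 108). Replicate 2 of helium 6.6 M was highest for HSPB1 at 41.9 CPM (the others 11.9 to 17.8) and for DNAJC4 at 6.87 CPM (the others 2.84 to 3.71). Replicate 3 of helium 6.6 M was highest for DNAJB4 at 145 CPM (the others 105 to 117). In nitrogen, replicate 1 at 6.6 M was highest for BAG3 at 13.2 CPM (the others 4.45 to 6.94) and for DNAJC1 at 50.1 CPM (the others 23.6 to 31.1).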

How the results depend on the processing

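The 2 members called between helium and nitrogen numbered 5 with DESeq2, 0 with the depth term, 2 with DESeq2's size factors and 3 with no filter, which added HSPA1B (adjusted p = 0.0111). Leaving out 1 library at a time gave 1 to 5, with 5 without fresh replicate 2 and 1 without any of the 3 helium 5.6 M libraries, helium 6.6 M replicates 1 or 3, nitrogen 5.6 M replicate 3 or nitrogen 6.6 M replicate 2. DNAJC24 passed in 17 of 19 alternatives (adjusted p 8.15e-05 to 0.411) and DNAJC19 in 12 (3.56e-05 to 0.370). For helium 5.6 M against fresh, members called were 0 to 4 when leaving out libraries and 1 with DESeq2, and for helium 6.6 M against fresh 0 to 2 and 1. In the other 5 comparisons no alternative called a member.

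Genes called over the whole table moved more. For vitrified against fresh the 43 became 191 with DESeq2, 142 with no filter, 1 with the depth term and 5 to 243 on leaving out libraries. For helium 5.6 M the 40 became 244, 160, 0 and 1 to 431 in the same order, and for helium 6.6 M the 53 became 279, 239, 0 and 3 to 598. For nitrogen 5.6 M the 1 became 32, 26, 2 and 1 to 3, and for nitrogen 6.6 M the 4 became 69, 60, 1 and 1 to 23, with 1 among libraries under 5000000 counts. For helium against nitrogen the 56 became 269, 344, 13 and 15 to 234. With no filter, concentration gave 3 and the interaction 2. The cause was not tested.

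The replicate block could be fitted to the 4 groups that share numbers. It called 0 members. Over the whole table it called 1 gene for vitrified against fresh, 3 for helium 6.6 M and 1 for nitrogen 6.6 M. The same 4 groups without the block, a fit added after seeing the data, called 3, 9 and 1. Of 1827 recomputed log2 fold changes of named members, 143 changed sign, each called in neither fit. With CPM in place of FPKM, which favours long genes, 8 of the 12 highest members stayed among the 12. Depth limits scarce members such as HSF1, which could not be tested.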
